A study of Mus musculus with 8 samples.

Results

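Genes for proteins of the mitochondrial ribosome were followed in mouse leukemic cells with and without Ikzf2. They were taken as every gene of the deposited count files whose symbol is Mrpl or Mrps followed by a number and, in some cases, a letter from a to c. This gave 77 genes of the 24421 symbols listed, 48 with an Mrpl and 29 with an Mrps symbol, and all 77 had enough reads to be tested. RNA was sequenced in 2 Ikzf2 KO libraries, from cells of Ikzf2Δ/Δ mice, and 2 Ikzf2 WT libraries, from cells of Ikzf2f/f mice. All 4 came from C57BL/6 bone marrow transformed with MLL-AF9, a fusion oncogene of acute leukemia. The marrow had been frozen, then thawed and sorted for high c-KIT, a receptor that marks immature blood cells. The sources used here do not give the Cre used, the exons removed or the age of the animals. The labels do not say that replicates came from separate mice. The sex-linked genes given below differed between the KO libraries, which were therefore not repeats of the same cells, and the WT libraries could not be told apart in this way. The p-values measure only the spread between these libraries. A further 4 samples of the series, made for chromatin accessibility, were not analysed here.

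Mitochondria carry their own ribosomes, which make the few proteins encoded in mitochondrial DNA, all of them subunits of the respiratory chain and ATP synthase. Every protein of these ribosomes is encoded in the nucleus, made in the cytosol and imported. Many have a relative in bacterial ribosomes and others were gained in the mitochondrial lineage. The small subunit reads the messenger RNA and the large subunit joins amino acids, and mitochondrial translation is known as a dependency of acute myeloid leukemia cells. Symbols do not always name the subunit. Mrps30 and Mrps18a encode large subunit proteins, and Mrps36 is now known to encode a component of the 2-oxoglutarate dehydrogenase complex. By structure the set holds 26 small subunit genes, 50 large subunit genes and Mrps36, spread over 17 chromosomes.

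Gene counts came to 16006081 and 18017545 in KO replicates 1 and 2 and to 19286090 and 18711837 in WT replicates 1 and 2. Levels are CPM, the reads of a gene relative to the depth of the library, with TMM factors for library composition, and 3 counts equal 0.15 to 0.186 CPM. Ikzf2, which encodes the zinc finger factor Helios, stood at 10.9 and 26.5 CPM in KO and 283 and 271 CPM in WT, a log2 fold change of -3.89 (SE 0.48, edgeR adjusted p = 0.332) that DESeq2 called, with an adjusted p of 1.13e-13. Of 9 genes of immature leukemic cells 6 had a fold change below 0, where 50.5% of all genes tested did, with a median of -0.14. That median was 0.024 with KO replicate 1 left out, and between -0.20 and -0.085 with any other library left out. Among the 9 genes Kit, the sorted receptor, had 236 and 376 CPM in KO and 216 and 329.6 CPM in WT. By edgeR and by DESeq2 0 of the 9 passed over all genes. Of the erythroid markers 6 of 10 were at 0 counts in KO replicate 1 and 7 of 10 in each other library. The 10 markers of maturing neutrophils were all detected in every library and summed to 12916 and 18414 CPM in KO and 851 and 3952 CPM in WT. The 8 dendritic cell markers summed to 1858 and 410.2 CPM in KO and 325 and 189 CPM in WT. Within this sum Flt3 had 69.1 and 286 CPM in KO and 248 and 153 CPM in WT. Cd74 had 821 and 58.6 CPM in KO and 2.45 and 7.96 CPM in WT. Of markers that edgeR tested, DESeq2 called 4 of 10 neutrophil and 4 of 7 dendritic ones, all higher in KO, and edgeR called 0. Over all genes DESeq2 called 2.11%. The dendritic ones called were Cd74, H2-Aa, H2-Eb1 and Ciita. Of the 7 dendritic markers 5 had a fold change above 0 and 2 below. Their median was 4.92, at its lowest 2.70 with KO replicate 1 left out and at its highest 5.57 with KO replicate 2 left out. All 10 neutrophil markers were above 0, with a median of 2.42. Leaving out WT replicate 1 lowered it to 1.85, with 8 of 10 above 0, and leaving out KO replicate 2 to 1.96, also with 8. The 9 immediate early genes, among them Fos and Jun, summed to 1903 and 11366 CPM in KO and 1249 and 4182 CPM in WT, so replicate 2 was the higher in both groups. Xist, the X-inactivation RNA, had 833 and 0.352 CPM in KO and 0.600 and 0.477 CPM in WT, and the Y-linked Ddx3y 0.0619 and 70.1 CPM in KO and 109.5 and 102 CPM in WT, its lowest value resting on 1 count, so KO replicate 1 differed from the other 3 libraries in its sex-linked genes. That difference enters every gap between the KO libraries and every value with a library left out. The part of these differences in the results below was not tested. In such sorted populations fewer cells of a type and less RNA per cell cannot be told apart.

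No change was detected in any of the 77 genes between Ikzf2 KO and WT cells. By edgeR's quasi-likelihood test over all 12623 genes tested, 0 of 77 passed an adjusted p of 0.05, as did 0% of all genes, and the lowest adjusted p among the 77 was 0.525. At an unadjusted edgeR p under 0.05 there was 1 gene, Mrpl16, lower in KO, against 7.67% of all genes in either direction and 3.52% lower in KO. DESeq2 likewise called 0 of 77, where it called 2.11% of the 16651 genes it tested, and 2 of the 77 had an unadjusted DESeq2 p under 0.05, against 7.59%. The median log2 fold change of the 77 was -0.09, against -0.0043 over all genes tested and -0.0032 over the 2383 genes whose mean level lay between the quartiles of the 77, 26.8 and 54.9 CPM. A fold change below 0 was found for 49 of the 77, which is 63.6%, against 50.5% of all genes. Fold changes ran from -0.88 to 0.24, and 69 of the 77 were within 0.5 on the log2 scale. Their standard errors had a median of 0.27 and ran from 0.20 to 0.80. The median turned to 0.12 without KO replicate 2, as described further on.

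In 18 genes the libraries of the groups did not overlap, and in all 18 both KO libraries lay below both WT libraries. They make up 23.4% of the 77, against 19.1% of all genes tested. In 0 of the 77 genes did both KO libraries lie above both WT libraries, which 18.1% of all genes did. Of the 18, 4 belong to the small subunit, or 15.4% of its 26 genes, and 14 to the large subunit, or 28% of its 50. In the other 59 genes the groups overlapped.

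**Figure D1:**
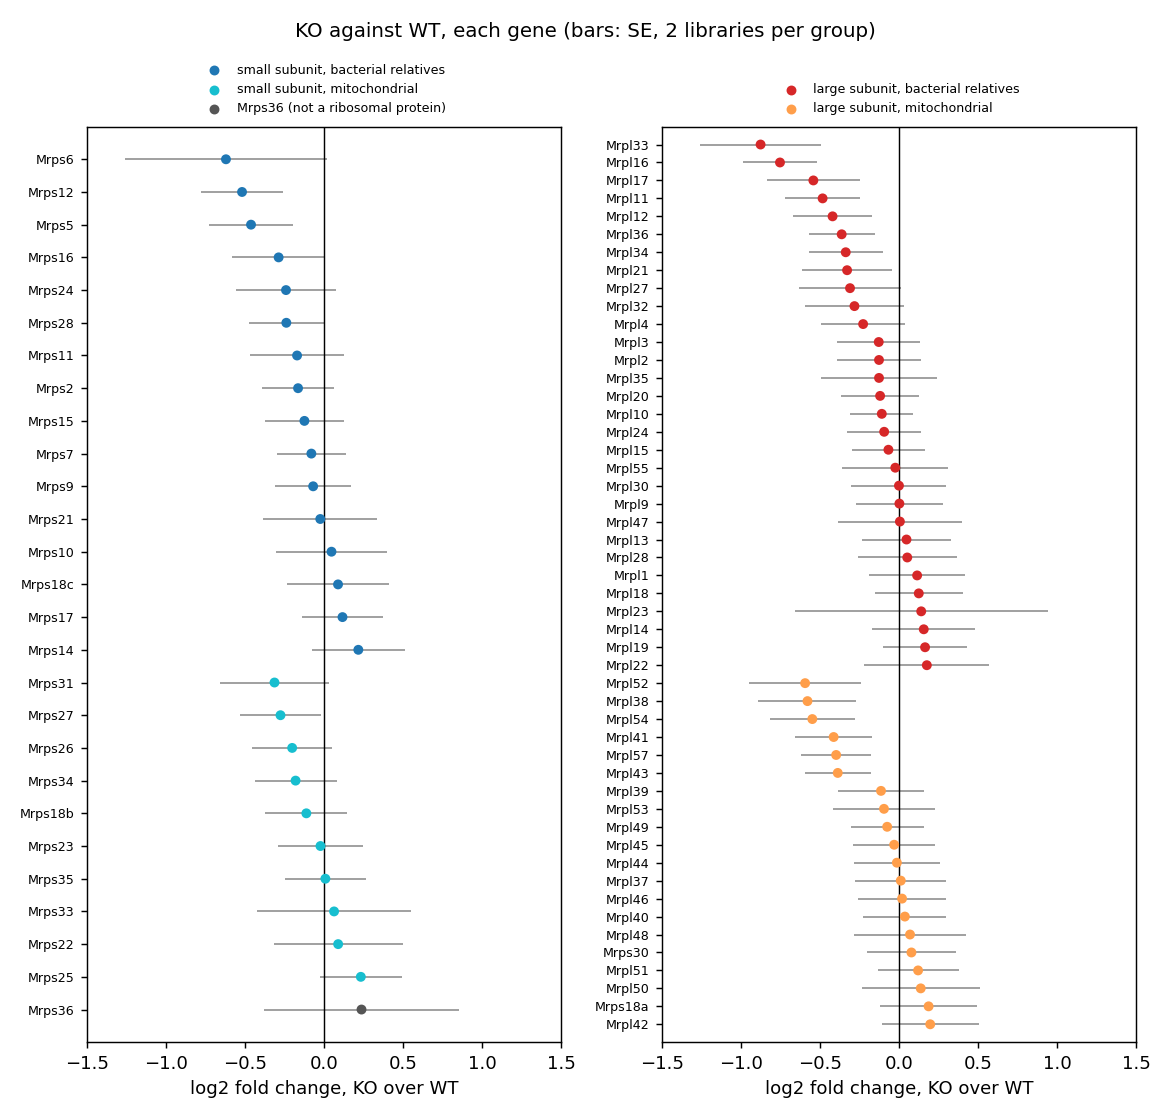
Each point is the log2 fold change of KO over WT for 1 gene, with its standard error as a bar (2 libraries per group), grouped by subunit and by whether the protein has a bacterial relative. Points lie between -0.88 for Mrpl33 and 0.24 for Mrps36, and most bars cross 0.

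Promoter sequences of these genes are given here as description, and a link between motifs and differences between libraries was not tested. RefSeq windows on GRCm38.p6, from 250 bases before to 50 bases after the outermost annotated start, were found for 68 of the 77 genes. Each motif was searched on both strands by its letters: GCGCA, any base and GCGC for the factor NRF1, CCGGAAG for ETS factors such as GABP, AAGATGGC for YY1 and CACGTG for the E-box bound by MYC and MAX. The ETS letters were in 33.8% of the 68 windows, against 18.7% of the 9599 windows of genes tested and 9.14% of all 27025 windows. The NRF1 letters were in 19.1%, against 10.7% of genes tested and 4.82% of all. The YY1 letters were in 17.6%, against 4.81% of genes tested and 2.87% of all. The E-box was in 7.35%, against 10.4% of genes tested and 7.24% of all. At least 1 motif was in 42 of the 68 windows, and 11 windows held 2 kinds, the most in any. Among the 15 genes with a window whose KO libraries were both below both WT libraries, 9 held the ETS letters, 3 the NRF1 letters, 3 the YY1 letters and 1 the E-box. The letters were not counted over all genes whose groups did not overlap, so these last counts have no share to be set against. A link between motif and genotype was not tested. A match describes the letters only.

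The windows printed here, 5′ to 3′, are those of the genes with the smallest p below 0 (Mrpl16 and Mrpl33) and above 0 (Mrps25 and Mrps14), and of Mrps26, shown as a window with 2 kinds of motif. Capitals mark motif matches.
Mrpl16, fold change below 0, chr19:11770165-11770464, plus strand: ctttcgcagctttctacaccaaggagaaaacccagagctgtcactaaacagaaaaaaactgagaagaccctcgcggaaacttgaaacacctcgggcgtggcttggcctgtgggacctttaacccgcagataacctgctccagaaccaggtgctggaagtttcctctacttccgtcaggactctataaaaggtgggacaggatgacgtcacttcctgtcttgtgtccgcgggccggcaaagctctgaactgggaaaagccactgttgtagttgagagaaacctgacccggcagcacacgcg
Mrpl33, fold change below 0, chr5:31613701-31614000, plus strand: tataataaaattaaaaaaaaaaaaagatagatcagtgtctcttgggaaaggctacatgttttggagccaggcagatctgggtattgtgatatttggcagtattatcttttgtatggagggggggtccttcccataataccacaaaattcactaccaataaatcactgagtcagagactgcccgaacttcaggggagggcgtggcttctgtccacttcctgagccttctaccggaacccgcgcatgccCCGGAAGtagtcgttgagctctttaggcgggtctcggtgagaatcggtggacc
Mrps25, fold change above 0, chr6:92183974-92184273, minus strand: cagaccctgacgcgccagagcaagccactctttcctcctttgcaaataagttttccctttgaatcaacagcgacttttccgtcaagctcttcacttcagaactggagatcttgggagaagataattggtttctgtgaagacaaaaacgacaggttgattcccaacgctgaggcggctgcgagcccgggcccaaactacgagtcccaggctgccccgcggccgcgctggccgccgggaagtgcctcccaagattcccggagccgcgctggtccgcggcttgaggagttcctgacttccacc
Mrps14, fold change above 0, chr1:160194965-160195264, plus strand: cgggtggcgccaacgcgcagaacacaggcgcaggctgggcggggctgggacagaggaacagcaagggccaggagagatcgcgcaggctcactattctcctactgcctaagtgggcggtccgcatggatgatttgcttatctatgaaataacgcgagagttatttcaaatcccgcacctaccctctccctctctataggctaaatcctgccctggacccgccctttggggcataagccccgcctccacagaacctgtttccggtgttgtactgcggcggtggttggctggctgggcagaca
Mrps26, 2 kinds of motif, chr2:130563507-130563806, plus strand: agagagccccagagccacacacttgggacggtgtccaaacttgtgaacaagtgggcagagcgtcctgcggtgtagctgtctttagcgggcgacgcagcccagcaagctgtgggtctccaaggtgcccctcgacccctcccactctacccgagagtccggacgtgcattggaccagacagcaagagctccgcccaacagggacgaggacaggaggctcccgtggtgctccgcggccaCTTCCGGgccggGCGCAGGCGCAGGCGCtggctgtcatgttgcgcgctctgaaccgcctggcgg
The Mrpl33 window holds 1 match, to the ETS letters, which begins 3 bases before the start. Mrps26 holds an ETS match, read on the opposite strand, and 2 NRF1 matches that overlap each other. The windows of Mrpl16, Mrps25 and Mrps14 hold none of the 4 motifs.

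Small subunit proteins with bacterial relatives form the platform on which the message is decoded. Of these 16 genes 12 had a fold change below 0 and 4 above, with a median of -0.14. In 3 of them, Mrps5, Mrps12 and Mrps28, both KO libraries were below both WT libraries, which is 18.75%, against 19.1% of all genes. Mrps12 (chromosome 7, 28739641 to 28741821 on GRCm38.p6, as for all positions here), whose protein sits at the decoding centre, had 24.0 and 24.9 CPM in KO and 39.7 and 30.5 CPM in WT. The KO libraries were close to each other and below both WT libraries, and the fold change was -0.52 (SE 0.26, edgeR adjusted p = 0.747). Mrps5 had 19.5 and 19.1 CPM in KO and 29.3 and 23.9 CPM in WT, with a fold change of -0.46 (SE 0.27). Mrps14 (chromosome 1, 160195215 to 160201186), whose promoter is printed above, had 73.7 and 48.1 CPM in KO and 59.1 and 45.6 CPM in WT. Its KO replicate 1 was the highest library and the others overlapped, with a fold change of 0.22 (SE 0.29, edgeR adjusted p = 0.943). Mrps9 had 74.7 and 53.5 CPM in KO and 67.0 and 67.4 CPM in WT, and its nearly equal WT libraries lay between the KO libraries. Mrps6 had few reads, 130 and 50 counts in KO and 211 and 119 counts in WT, and its fold change was -0.62 (SE 0.64).

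Small subunit proteins gained by mitochondria surround that core. Of these 10 genes 6 were below 0 and 4 above, with a median of -0.067. Mrps25 (chromosome 6, 92169512 to 92184023) had 139 and 96.0 CPM in KO and 111 and 89.3 CPM in WT, a fold change of 0.23 (SE 0.26, edgeR adjusted p = 0.917). KO replicate 1 was the highest of its libraries, and KO replicate 2 lay between the WT libraries. Mrps23 had 83.6 and 54.9 CPM in KO and 75.3 and 65.3 CPM in WT, with the KO libraries on either side of the WT libraries. Mrps27, an RNA-binding protein of the pentatricopeptide repeat family, had 32.1 and 24.8 CPM in KO and 36.6 and 32.3 CPM in WT. It was the 1 gene of these 10 whose groups did not overlap, where 19.1% of all genes had both KO libraries below both WT libraries. Mrps33 had few reads too, 98 and 78 counts in KO and 90 and 107 counts in WT.

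The paralogs Mrps18a, Mrps18b and Mrps18c encode related proteins at different sites of the ribosome, the first of them in the large subunit. Mrps18a had 43.7 and 26.7 CPM in KO and 31.0 and 30.9 CPM in WT. Mrps18b had 29.0 and 22.6 CPM in KO and 27.4 and 28.3 CPM in WT. Mrps18c had 55.4 and 31.4 CPM in KO and 40.8 and 40.8 CPM in WT. In all 3 paralogs KO replicate 1 was the highest and KO replicate 2 the lowest library, with the WT libraries close together between them. Their fold changes were 0.19 (SE 0.31), -0.11 (SE 0.26) and 0.089 (SE 0.32).

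Large subunit proteins with bacterial relatives build the catalytic core, the stalk where factors dock and the exit tunnel. Of these 30 genes 20 were below 0 and 10 above, with a median of -0.11. In 8 of the 30, or 26.7%, both KO libraries were below both WT libraries, against 19.1% of all genes. Mrpl55, which was counted in this group, is classed in structural work as gained by mitochondria, and its fold change was -0.024. Mrpl16 (chromosome 19, 11770415 to 11774956), a protein near the tRNA-binding sites, had the smallest p of the 77, with 348 and 415 counts in KO and 788 and 716 counts in WT. Scaled, these were 21.5 and 24.4 CPM in KO and 39.4 and 38.0 CPM in WT, so the replicates of each group lay close together and apart from the other group. The mean was 22.9 ± 2.00 CPM in KO and 38.7 ± 1.01 CPM in WT (SD, n = 2 each), a log2 fold change of -0.75 (SE 0.23). The edgeR adjusted p was 0.525 and that of DESeq2 0.252, so the difference did not pass over all genes. With any 1 library left out it ran from -0.85 to -0.67.

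Mrpl33 (chromosome 5, 31613951 to 31622644) had 135 and 91.5 CPM in KO and 273 and 142 CPM in WT. WT replicate 1 was far above the other 3 libraries, and the fold change of -0.88 (SE 0.39, edgeR adjusted p = 0.692) was -0.33 without that library and -1.26 without WT replicate 2. Mrpl11 (chromosome 19, 4962152 to 4966995), at the base of the stalk, had 25.2 and 26.1 CPM in KO and 39.1 and 32.7 CPM in WT. Its KO libraries were nearly equal and below both WT libraries, with a fold change of -0.48 (SE 0.24, edgeR adjusted p = 0.747). Mrpl12, the stalk protein that recruits translation factors, had 66.4 and 58.2 CPM in KO and 98.4 and 68.5 CPM in WT. WT replicate 1 stood well above the other libraries, and the fold change of -0.42 (SE 0.25) was -0.14 without it. The other genes of this group with both KO libraries below both WT libraries were Mrpl17, Mrpl21, Mrpl34 and Mrpl36, with fold changes of -0.54, -0.33, -0.34 and -0.36. Mrpl34 had 25.9 and 24.4 CPM in KO and 31.7 and 31.9 CPM in WT, and Mrpl36 had 37.5 and 35.9 CPM in KO and 49.0 and 45.4 CPM in WT. In both the replicates of a group were close to each other.

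Above 0 in the same group, Mrpl19 (chromosome 6, 81957826 to 81965949) had 90.0 and 59.1 CPM in KO and 64.5 and 68.5 CPM in WT, a fold change of 0.16 (SE 0.26, edgeR adjusted p = 0.954). Mrpl14 (chromosome 17, 45685722 to 45698495), on the face that meets the small subunit, had 25.3 and 16.97 CPM in KO and 20.2 and 17.8 CPM in WT, a fold change of 0.16 (SE 0.32, edgeR adjusted p = 0.970). In both genes KO replicate 1 was the highest library and KO replicate 2 the lowest. Mrpl24, near the exit of the tunnel, had 117 and 87.1 CPM in KO and 117 and 101 CPM in WT. Mrpl23, also at the tunnel exit, had the fewest reads of the 77 genes, 52 and 15 counts in KO and 35 and 37 counts in WT. Its fold change of 0.14 (SE 0.80) was -1.07 without KO replicate 1 and 0.79 without KO replicate 2.

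Of 20 genes for large subunit proteins gained by mitochondria 11 were below 0 and 9 above, with a median of -0.023. In 6 of them, Mrpl38, Mrpl41, Mrpl43, Mrpl52, Mrpl54 and Mrpl57, both KO libraries were below both WT libraries. That is 30%, against 19.1% of all genes. Mrpl54 (chromosome 10, 81264722 to 81266926) had 36.8 and 33.5 CPM in KO and 61.4 and 41.5 CPM in WT, a fold change of -0.55 (SE 0.27, edgeR adjusted p = 0.747) that was -0.24 without WT replicate 1. Mrpl38 (chromosome 11, 116131817 to 116138868), a protein of the central protuberance, had 29.3 and 19.9 CPM in KO and 42.0 and 31.5 CPM in WT, a fold change of -0.58 (SE 0.31, edgeR adjusted p = 0.770). In Mrpl38 each group's replicate 1 was the higher library. Mrpl43 had 47.4 and 53.5 CPM in KO and 70.0 and 62.1 CPM in WT, a fold change of -0.39 (SE 0.21). Its annotated span overlaps that of Twnk, and 25 of the 77 genes overlap another gene in this way. Since no strand setting is stated, it is not known how reads of such overlaps were counted. Reads marked as ambiguous, 127599 and 127647 in KO and 146254 and 148459 in WT, were given to no gene.

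Mrpl42 (chromosome 10, 95480805 to 95501949) had the highest fold change of these 20, 0.20 (SE 0.31, edgeR adjusted p = 0.953), with 45.1 and 27.6 CPM in KO and 33.1 and 30.3 CPM in WT. Mrpl44, which has a ribonuclease III-like fold, had 80.7 and 62.0 CPM in KO and 58.8 and 85.3 CPM in WT, so that replicate 1 was the higher library in KO and the lower in WT. Mrpl53 had 19.5 and 13.97 CPM in KO and 17.6 and 18.2 CPM in WT. Mrps36, the gene outside the ribosome, had 89 and 52 counts in KO and 93 and 49 counts in WT, a fold change of 0.24 (SE 0.61).

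**Figure D2:**
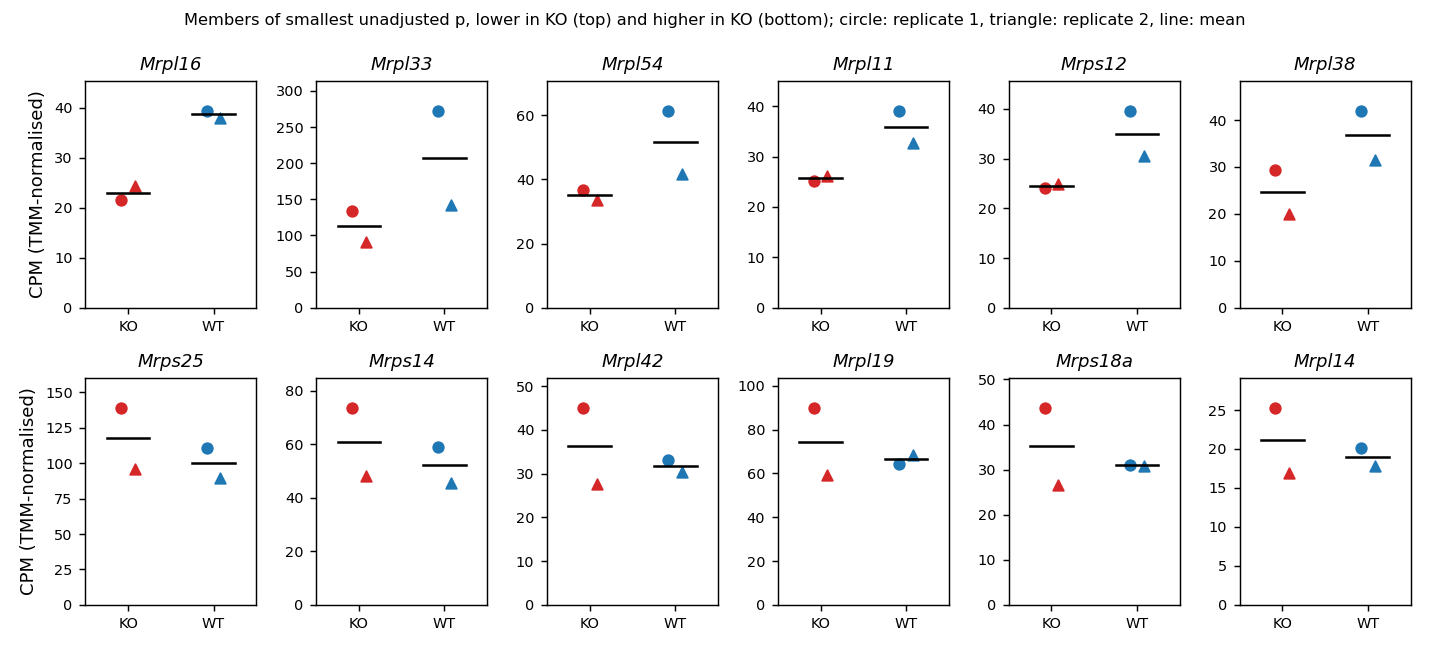
CPM per library for the 6 genes of smallest unadjusted p with a fold change below 0 (top row) and above 0 (bottom row), with KO left of WT, circles for replicate 1, triangles for replicate 2 and lines for group means. In the top row the KO points lie below the WT points in every panel, Mrpl16 at 21.5 and 24.4 CPM in KO against 39.4 and 38.0 CPM in WT, and in the bottom row the groups overlap.

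Of 6 proteins of the same ribosome whose symbols do not follow the Mrpl and Mrps pattern, Dap3, Aurkaip1, Ptcd3, Gadd45gip1, Ict1 and Chchd1, 4 were below 0, with a median of -0.083 that lay between -0.25, with KO replicate 1 left out, and -0.024, with WT replicate 2 left out. Dap3, a GTP-binding protein of the small subunit, had 85.3 and 78.0 CPM in KO and 85.4 and 90.3 CPM in WT. Aurkaip1, also of the small subunit, had 102 and 74.7 CPM in KO and 80.4 and 71.5 CPM in WT. In each the fold change was smaller than the larger of the replicate gaps. Gadd45gip1, a large subunit protein, had 44.8 and 39.3 CPM in KO and 66.0 and 57.5 CPM in WT, a fold change of -0.55 (SE 0.22, edgeR adjusted p = 0.640). It was the 1 gene of the 6 with an unadjusted edgeR p under 0.05, which 7.67% of all genes had. By edgeR and DESeq2 0 of the 6 passed over all genes.

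Replicate 1 lay above replicate 2 in most of the 77 genes, in both groups. KO replicate 1 exceeded KO replicate 2 in 71 of the 77 genes, which is 92.2%, against 50.8% of all genes tested, with a median log2 difference of 0.48. WT replicate 1 exceeded WT replicate 2 in 64 of the 77, or 83.1%, against 50.2% of all genes, with a median of 0.19. Both held in 58 genes. The median size of a gene's gap was 0.48 between the KO libraries and 0.21 between the WT libraries, while the median size of its difference between group means was 0.14. Over all genes tested these medians were 0.43 between the KO libraries, 0.27 between the WT libraries and 0.27 between group means, which average 2 libraries each where a gap compares single ones. For 11 of the 77 genes, or 14.3%, the difference between groups was larger than the larger replicate gap, against 24.7% of all genes. KO replicate 2 was the lowest of the 4 libraries in 63 of the 77 genes and the highest in 0, where over all genes it was the lowest in 26.3%. KO replicate 1 was the highest in 44 of the 77 and in 30.4% of all genes, and WT replicate 1 in 29 of the 77 and in 23.9% of all genes. The median deviation of the 77 genes from their own means was 0.18 and -0.28 in KO and 0.15 and -0.042 in WT. The immediate early genes ran the other way between replicates, with sums of 1903 and 11366 CPM in KO and 1249 and 4182 CPM in WT, and their part in this pattern was not tested.

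**Figure D3:**
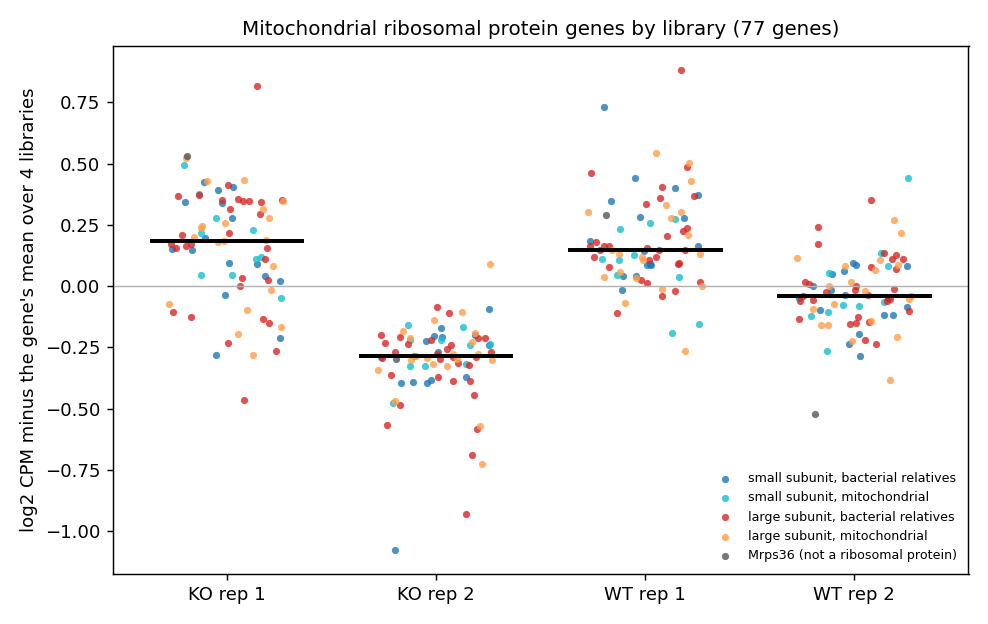
Each point is 1 gene's log2 CPM in a library minus its mean over the 4 libraries, coloured by subunit and origin, with black bars for medians over the 77 genes. The medians are 0.18 and -0.28 in KO replicates 1 and 2 and 0.15 and -0.042 in WT replicates 1 and 2, and most points of KO replicate 2 lie below 0.

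The direction between genotypes changed with the library left out. Without KO replicate 1 the median fold change was -0.35 and 76 of the 77 genes were below 0, whereas without KO replicate 2 it was 0.12 and 29 were below 0. Leaving out WT replicate 1 gave -0.0019 with 39 genes below 0, and leaving out WT replicate 2 gave -0.15 with 60 below 0. The share of all genes below 0 was 52.6% without KO replicate 1, 51.9% without KO replicate 2, 48.1% without WT replicate 1 and 47.9% without WT replicate 2. Each of the 4 structural groups had a median below 0 without KO replicate 1, between -0.37 and -0.30, and above 0 without KO replicate 2, between 0.0066 and 0.18. In 23 of the 77 genes the sign was below 0 in each of these 4 fits, against 24.9% of all genes, and in 0 of the 77 was it above 0 in each, against 24.1% of all genes. The 23, or 29.9%, hold the 18 genes whose groups did not overlap, for which the sign follows from the separation of the groups, and the others were Mrps6, Mrpl27, Mrpl10, Mrps16 and Mrps26. In each of the 4 fits 0 of the 77 genes passed by edgeR, and 0 by DESeq2.

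**Figure D4:**
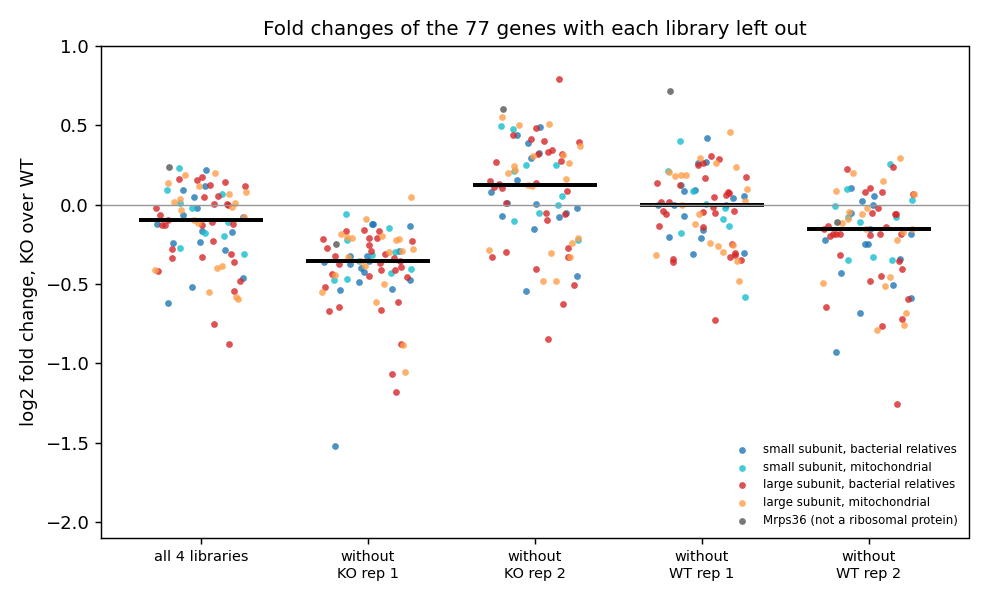
Log2 fold changes of KO over WT for the 77 genes with all 4 libraries and with each library left out in turn, coloured by subunit and origin, with black bars for medians. The median is -0.09 with all libraries, -0.35 without KO replicate 1, 0.12 without KO replicate 2, -0.0019 without WT replicate 1 and -0.15 without WT replicate 2.

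Summed over the 77 genes, reads made up 0.359% and 0.245% of gene counts in KO and 0.383% and 0.312% in WT. Exact 95% binomial intervals, which cover counting error only, were 0.356% to 0.362% and 0.243% to 0.247% in KO, and 0.380% to 0.385% and 0.310% to 0.315% in WT. The mean was 0.302% ± 0.0804 in KO and 0.347% ± 0.0496 in WT (SD, n = 2 each), so the means differed by less than the SD of either group. Small subunit reads were 0.464 and 0.460 times large subunit reads in KO and 0.423 and 0.434 times in WT, and the groups did not overlap in this ratio. Mrpl33 alone gave 5452 of the 51785 large subunit counts of WT replicate 1.

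The machinery that builds and serves the mitochondrial ribosome was read from lists of genes outside the 77. Of 25 assembly factors 14 were below 0 and 11 above, with a median of -0.0072 that was -0.19 without KO replicate 1, 0.13 without KO replicate 2, 0.076 without WT replicate 1 and -0.077 without WT replicate 2. Rbfa, which acts on the small subunit, had 118 and 84.4 CPM in KO and 96.7 and 96.5 CPM in WT, and the matrix protease Lonp1 118 and 129 CPM in KO and 135 and 137 CPM in WT. Of 15 translation factors and partners 11 were below 0, with a median of -0.16 that was -0.25 without KO replicate 1 and -0.045 without KO replicate 2. Mtif3, an initiation factor, had 77.9 and 61.6 CPM in KO and 104 and 84.5 CPM in WT, and Oxa1l, which inserts new proteins into the inner membrane, 97.4 and 72.0 CPM in KO and 93.3 and 108 CPM in WT. Both KO libraries of Mtif3 were below both WT libraries, and those of Oxa1l overlapped them. Of 20 mitochondrial tRNA synthetases and related enzymes 11 were below 0, with a median of -0.054 that was -0.17 without KO replicate 1, -0.10 without WT replicate 2 and above 0, at 0.034, without KO replicate 2. Iars2, for isoleucine, had 79.2 and 121 CPM in KO and 130.3 and 147 CPM in WT, and Lars2, for leucine, 3688 and 2556 CPM in KO and 2765 and 3227 CPM in WT. Of 17 genes that copy, transcribe and process mitochondrial DNA and RNA 10 were below 0, with a median of -0.11 that was -0.29 without KO replicate 1, -0.03 without WT replicate 1 and above 0, at 0.044, without KO replicate 2. Polg, the DNA polymerase, had 85.6 and 135 CPM in KO and 136 and 104 CPM in WT, and Pnpt1, an RNA-degrading enzyme, 74.2 and 56.5 CPM in KO and 70.3 and 73.7 CPM in WT.

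Of 18 mitochondrial chaperone and import genes 15 were below 0, with a median of -0.24. It stood at -0.34 when KO replicate 1 was left out, -0.10 when KO replicate 2 was and -0.12 when WT replicate 1 was, with 12 of 18 below 0 in each of the last 2 of these fits. Hspa9, the matrix chaperone, had 239 and 253 CPM in KO and 355 and 294 CPM in WT, and Tomm70a, an import receptor, 165 and 177 CPM in KO and 284 and 213 CPM in WT. In both genes the KO libraries were below both WT libraries. Of these 5 lists 0 genes passed over all genes by edgeR and 0 by DESeq2. At an unadjusted edgeR p under 0.05, where 7.67% of all genes stood, there were 3 genes over the 5 lists together. Mtg1, a GTPase of large subunit assembly, had 28.1 and 24.1 CPM in KO and 44.8 and 38.2 CPM in WT. Top1mt, the mitochondrial topoisomerase, had 11.4 and 13.1 CPM in KO and 27.7 and 24.0 CPM in WT, a fold change of -1.08 (SE 0.29, edgeR adjusted p = 0.456). Tomm40, the import channel, had 64.7 and 82.0 CPM in KO and 149.7 and 98.0 CPM in WT. These 3 genes were named after their values were seen.

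Regulators known to act on such genes were also read. Nrf1 had 77.7 and 87.6 CPM in KO and 81.0 and 81.4 CPM in WT, Gabpa 109 and 120.1 CPM in KO and 114 and 111 CPM in WT and Yy1 154 and 139 CPM in KO and 147 and 145 CPM in WT. Their fold changes were 0.026 (SE 0.19), 0.026 (SE 0.19) and 0.0088 (SE 0.19). Myc had 154 and 137 CPM in KO and 115 and 186 CPM in WT, with the WT libraries on either side of the KO libraries. Its partner Max had 129 and 98.2 CPM in KO and 77.3 and 80.5 CPM in WT, a fold change of 0.52 (SE 0.22, edgeR adjusted p = 0.664). Gabpb2, a partner of Gabpa, had 129 and 196 CPM in KO and 159 and 149 CPM in WT. Of the 10 regulators tested 0 passed by edgeR and 0 by DESeq2. At an unadjusted edgeR p under 0.05, where 7.67% of all genes stood, there was 1 of the 10. It was Ppargc1b, a coactivator named after its values were seen, with 0.495 and 0.704 CPM in KO and 5.45 and 1.49 CPM in WT.

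The respiratory chain holds the products of the mitochondrial ribosome and the cytosolic ribosome makes its proteins. The respiratory chain genes read here are all encoded in the nucleus, so the mitochondrial ribosome's own products were not measured. Of 78 respiratory chain and ATP synthase genes tested 42 were above 0 and 36 below, with a median of 0.0092. KO replicate 1 exceeded KO replicate 2 in 74 of them and WT replicate 1 exceeded WT replicate 2 in 73, with medians of 0.54 and 0.32. Atp5b, a catalytic subunit of ATP synthase, had 938 and 913 CPM in KO and 1205 and 1055 CPM in WT. Of 80 cytosolic ribosomal protein genes tested 70 were below 0, with a median of -0.19. KO replicate 1 exceeded KO replicate 2 in 66 of them and WT replicate 1 exceeded WT replicate 2 in 35, with medians of 0.50 and -0.015. Rpl4 had 2666 and 2095 CPM in KO and 2761 and 3024 CPM in WT. The cytosolic median was -0.50 without KO replicate 1 and -0.002 without KO replicate 2. The respiratory chain median was -0.32 without KO replicate 1, 0.26 without KO replicate 2, 0.15 without WT replicate 1 and -0.14 without WT replicate 2. In both sets 0 genes passed over all genes by edgeR and 0 by DESeq2. At an unadjusted edgeR p under 0.05 there was 1 respiratory chain gene, Cox6b2, and 0 cytosolic genes, against 7.67% of all genes.

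**Figure D5:**
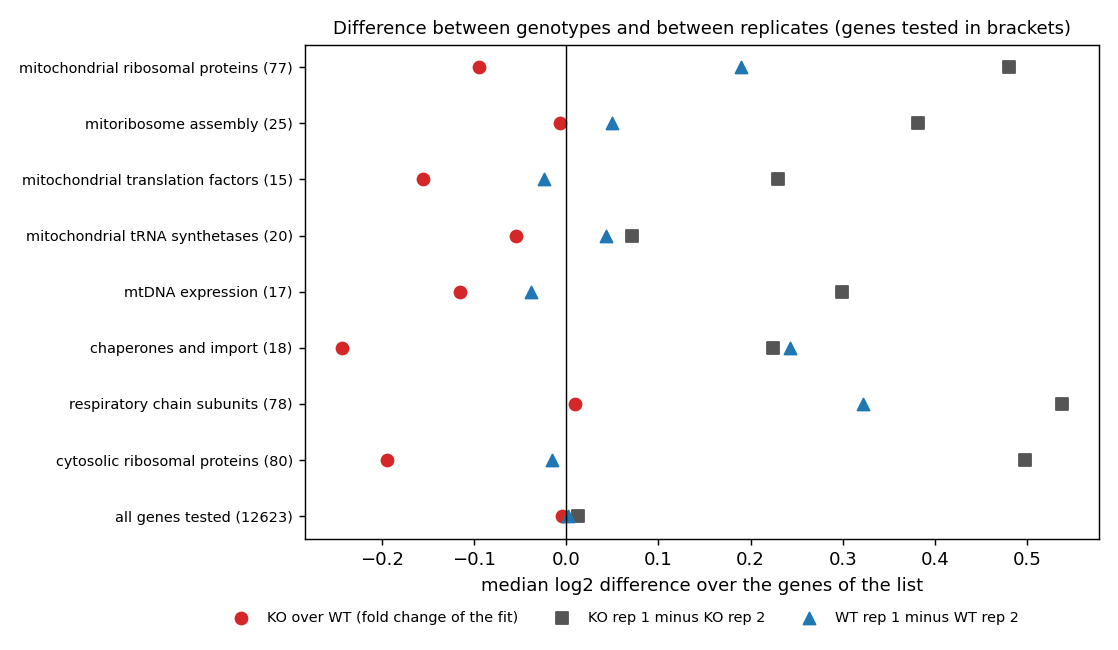
Median log2 difference over the genes of each list for KO over WT, KO replicate 1 minus KO replicate 2 and WT replicate 1 minus WT replicate 2, with the number of genes tested in brackets. For the 77 genes these stand at -0.09, 0.48 and 0.19, and for the nuclear genes of the respiratory chain at 0.0092, 0.54 and 0.32.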

How the data were processed

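RNA-seq counts of 4 libraries (2 KO, 2 WT) were analysed. The authors deposited raw read counts per gene symbol. Build mm10 and the tools MACS2, Picard, HTSeq, STAR 2.3.0 and Bowtie2 2.2.5 are named, with no role, per the submitters' processing notes. No annotation, strand setting or read filter is given in those sources. The 5 closing lines, for reads given to no single gene, were not used, and held 72.4% and 69.3% of counts in KO and 72.2% and 71.7% in WT. Groups and replicate numbers came from the titles.

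With R 4.3.3, counts of the 12623 genes that pass filterByExpr in edgeR 4.0.16 were scaled by TMM and compared, KO over WT, with edgeR's quasi-likelihood F-test (robust, no covariate, Benjamini-Hochberg adjustment over all genes, threshold 0.05). SE is the size of the log2 fold change divided by the square root of F. Differences between libraries use log2 CPM with a prior count of 2. Alternatives were DESeq2 1.42.0 on 16651 genes, voom in limma 3.58.1, other scalings, no filter, a replicate block and leaving out each library. The edgeR and DESeq2 fits were run on simulated data with known changes, as a check of the code. The simulation held no replicate pattern like that of these libraries, so it cannot show how the fits perform on them. Replicates differed beyond counting noise (chi-square per degree of freedom 109 in KO and 80.5 in WT), so each counted as 1 sample.

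The genes, lists and structural groups were chosen with earlier results of these data known. Named genes are the 6 per direction of smallest p, the 2 of highest and 1 of lowest level in each structural group, 6 chosen by name, and in each list the genes called and the 2 of highest level. Others were named after their values were seen. Levels are CPM and not per length, so they do not rank genes by transcript number. Coordinates are RefSeq's on GRCm38.p6, the assembly that mm10 names, and 77 of 77 symbols matched.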

Additional observations from a re-analysis of the deposited data

How the results depend on the processing

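In each of the 10 alternative fits 0 of the 77 genes passed in either direction. Over all genes edgeR called 0, against 352 by DESeq2, 4 with no filter on low counts, 11 with the replicate block, and 0 to 156 with a library left out (50 without WT replicate 1 and 156 without WT replicate 2). The replicate numbers are only shared in the titles: same-numbered libraries correlated at 0.191 in their deviations from group means, over 2 libraries a group. In a principal component analysis of log2 CPM over all genes tested, the first component held 46.9% of the variance. KO replicates 1 and 2 stood on it at -60.4 and -24.6, and WT replicates 1 and 2 at 58.4 and 26.5. The second component held 33.9% of the variance. Replicate 1 stood on it at 37.3 in KO and 40.4 in WT, and replicate 2 at -38.2 and -39.5. What these components stand for was not tested. Under the block the median of the 77 was -0.11. An unadjusted edgeR p under 0.05 was found there for 3 of the 77 genes, against 1209 of all 12623 genes tested. The median of the 77 lay between -0.15 and -0.083 over the other tests, scalings and filters, with the median of all genes at -0.069 for library sizes alone. With a library left out the median ran from -0.35 up to 0.12, that of the small subunit from -0.36 up to 0.031, that of the large subunit from -0.34 up to 0.13 and the number of genes above 0 from 1 up to 48. The lowest and highest values came from leaving out KO replicate 1 and KO replicate 2, and the cause was not tested. The ratio of the KO to the WT mean share was 0.869, and 0.706 to 1.03 with a library left out. Of 25 named genes 9 kept their sign in all 10 alternatives, and 15 of the other 16 changed it only with a library left out. Mrpl23 changed it also with voom (-0.14) and the replicate block (-0.10). With a library left out the 16 ranged as follows: Mrps25 -0.057 to 0.48, Mrps14 -0.12 to 0.49, Mrpl42 -0.20 to 0.51, Mrpl19 -0.17 to 0.44, Mrps18a -0.21 to 0.50, Mrpl14 -0.16 to 0.42, Mrps9 -0.33 to 0.15, Mrps23 -0.35 to 0.25, Mrps33 -0.15 to 0.25, Mrpl24 -0.32 to 0.10, Mrpl23 -1.07 to 0.79, Mrpl44 -0.26 to 0.29, Mrpl53 -0.35 to 0.12, Mrps18b -0.30 to 0.056, Mrps18c -0.37 to 0.44 and Mrps36 -0.25 to 0.72. Where 1 library was left in a group, its spread was taken from the other group. With 2 libraries a group, the SE of a fold change had a median of 0.27 over the 77 genes, which limits the size of difference that could pass.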
